A study of Mus musculus with 18 samples.

Results

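Antiviral interferon-stimulated genes encode proteins that block the replication of viruses inside the cell. Their histone marks were examined in mouse embryonic fibroblasts (MEFs), in 6 windows of the genome around Rsad2 and Cmpk2, Mx1, Oas2 and its neighbours, Ifit1 to Ifit3, Isg15, and Ifi27. The windows are 30 to 190 kb long and cover 8 named genes and the Ifi27 region. All peaks of 8 deposited histone peak lists that overlapped a window were taken, 121 of 225177 peaks. The windows were chosen by the H3K4me3 and H3Ac peaks of these same lists, at places where Cre and GFP cells differed, so that the values below are a description and carry no test.

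The cells, of a mixed B6;129 background, have an Rb gene that Cre recombinase can delete. Rb, the retinoblastoma protein, restrains the cell cycle through E2F factors. Cre cells were infected with an adenovirus carrying Cre recombinase (Adeno-Cre), and GFP cells with Adeno-GFP, which leaves Rb intact. Both groups thus received adenovirus, both were without 4F, and both were expanded for at most 3 passages. Each group had 1 library for each of 4 marks, all labelled biological replicate 3, and the other 10 of the 18 samples were not analysed here. The sources used here do not say how many embryos were used, their sex, or whether both groups came from the same ones. Neither the deletion nor the fibroblast label was checked, because the peaks could not be placed on genes other than through the named windows.

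When a cell senses a virus or receives type I interferon, transcription factors bind a short element, the interferon-stimulated response element (ISRE), in the promoters of these genes. H3K4me3 and acetylated H3 (H3Ac, detected with a pan-acetyl H3 antibody) mark active promoters. H3K27me3 is the mark of Polycomb silencing and H3K9me3 that of heterochromatin. Fibroblasts are known to respond strongly to interferon and to keep many of these genes low without it.

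The reference promoters were searched for elements known from interferon-stimulated genes. They were taken from RefSeq on build GRCm38.p6, a build other than that of the peak lists, and run from 250 bases before to 50 bases after the start site on the gene's own strand. Entries were matched for 6 of the 9 genes (Rsad2, Cmpk2, Ifit1, Ifit2, Ifit3 and Isg15). The promoters below are the 4 that hold the ISRE core on either strand, printed in capitals: GAAA, any 2 bases and GAAA again, which reads TTTC, 2 bases, TTTC from the other strand.
Isg15, chr4:156200769-156201068, minus strand: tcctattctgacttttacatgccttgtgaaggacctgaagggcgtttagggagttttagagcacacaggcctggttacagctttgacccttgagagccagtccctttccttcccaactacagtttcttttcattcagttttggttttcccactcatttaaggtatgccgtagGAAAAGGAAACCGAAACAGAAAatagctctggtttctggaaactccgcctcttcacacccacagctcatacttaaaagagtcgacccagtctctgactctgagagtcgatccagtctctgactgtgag
Ifit1, chr19:34640639-34640938, plus strand: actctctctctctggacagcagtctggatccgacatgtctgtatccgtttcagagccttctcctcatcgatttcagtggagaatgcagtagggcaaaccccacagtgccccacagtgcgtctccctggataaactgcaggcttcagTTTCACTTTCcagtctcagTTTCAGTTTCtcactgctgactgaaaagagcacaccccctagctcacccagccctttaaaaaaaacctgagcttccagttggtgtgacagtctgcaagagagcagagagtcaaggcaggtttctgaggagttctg
Ifit3, chr19:34583279-34583578, plus strand: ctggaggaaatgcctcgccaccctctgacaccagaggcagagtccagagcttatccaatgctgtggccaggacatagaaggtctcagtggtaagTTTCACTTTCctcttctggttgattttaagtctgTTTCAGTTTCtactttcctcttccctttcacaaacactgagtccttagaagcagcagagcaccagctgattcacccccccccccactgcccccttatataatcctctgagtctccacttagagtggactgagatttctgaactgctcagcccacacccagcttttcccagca
Rsad2, chr12:26456403-26456702, minus strand: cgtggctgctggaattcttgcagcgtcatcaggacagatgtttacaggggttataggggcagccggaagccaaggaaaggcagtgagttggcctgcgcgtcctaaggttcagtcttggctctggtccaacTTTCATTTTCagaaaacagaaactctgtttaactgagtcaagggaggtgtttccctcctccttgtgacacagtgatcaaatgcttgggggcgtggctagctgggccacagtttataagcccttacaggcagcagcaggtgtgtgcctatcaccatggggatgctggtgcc

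Isg15 held 3 overlapping copies of the core, Ifit1 and Ifit3 held 2 each, and Rsad2 held 1. The first copy began at position -78 in Isg15, -104 in Ifit1, -156 in Ifit3 and -120 in Rsad2, counted from the start site. Over all 27025 genes with a promoter entry, 3.99% held the core. In a list of 50 other interferon-stimulated genes 39 were matched, and 19 of these (48.7%) held it, among them Oas1a, Oas3, Ifit3b, Stat2 and Ifih1. The core followed by CT, a longer form, was found in Ifit1 and Ifit3, in 28.2% of the other interferon-stimulated genes and in 0.303% of all genes. No ISRE core was found in this stretch of Cmpk2 or in either of the 2 listed promoters of Ifit2.

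Other elements were searched in the same way. An E2F-type element (TTGGCGC or TTCCCGC, either strand), the kind of site through which Rb acts, was found in 1 of the 6 genes, Ifit2. It was found in 12.8% of the other listed genes and in 7.79% of all genes. A GAS-type element (TTCNNNGAA, the same on both strands), known from the response to interferon gamma, was found in Ifit2 alone, in 25.6% of the other listed genes and in 9.55% of all. An NF-kB-type element (GGGA, 4 bases and CC, either strand) was found in Ifit2 and Rsad2, in 25.6% of the other listed genes and in 22.9% of all genes. A match is a description of letters and not a site in use. The GAS-type and NF-kB-type matches in the first Ifit2 promoter overlap each other.

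In Cre cells the active marks covered more of every window than in GFP cells. H3K4me3 peaks covered 77.1 kb in Cre cells and 37.6 kb in GFP cells over the 6 windows, a ratio of 2.05, while the ratio over the whole lists was 1.08. H3Ac peaks covered 80.3 kb in Cre cells and 50.1 kb in GFP cells, a ratio of 1.60, against 0.847 over the whole lists. H3K27me3 in sum went the other way, with 16.4 kb in Cre cells and 21.8 kb in GFP cells, a ratio of 0.755, against 1.055 over the whole lists. That direction rested on weak peaks. Without peaks scoring below 100, the H3K27me3 sum was no longer smaller in Cre cells. Windows with a GFP H3K27me3 peak then numbered 1 in place of 4, and those with a Cre one stayed at 3. H3K9me3 was scarce in both, with 3.32 kb in Cre cells and 3.40 kb in GFP cells, a ratio of 0.975, against 0.346 over the whole lists.

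Of the 22 Cre H3K4me3 peaks in the windows, 5 had no GFP peak overlapping by at least 1 base, called Cre-only here, where 12.6% of the whole Cre list (exact 95% interval 12.2 to 13.1) had none. Of the 29 Cre H3Ac peaks, 11 were Cre-only, beside 15.4% of that list. Of the GFP peaks, 2 of 19 H3K4me3 peaks and 2 of 22 H3Ac peaks had no Cre counterpart, beside 10.7% and 26.6% of those lists. Cre-only H3K4me3 peaks lay in 4 of the 6 windows and Cre-only H3Ac peaks in 5. Of all bins of 50 kb with a Cre peak, 19.4% held a Cre-only H3K4me3 peak and 30.8% a Cre-only H3Ac peak (30.7% with the bins shifted by 25 kb), but 2 of the windows are much longer than such a bin. These shares chose the windows, and nothing is read from them. Intervals cover counting error only and the read depth behind the lists is unknown.

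Some of the Cre-only peaks were strong and others weak. The score of a peak is the authors' own, has no stated unit and is read here as a rank within its list. The median H3K4me3 score was 887 over the Cre list and 565 over the GFP list. For H3Ac it was 227 over the Cre list and 224 over the GFP list. Raw H3K4me3 scores set side by side below therefore carry a shift of the whole list. A score of at least 3100 was reached by 26.3% of Cre and 19.2% of GFP H3K4me3 peaks, and within the windows by 13 of 22 Cre and 2 of 19 GFP peaks. Among Cre H3K4me3 peaks scoring at least 1000, 0.203% (22 of 10843) were Cre-only, and 3 of these 22 lay in the Rsad2 and Cmpk2, Mx1 and Ifi27 windows. Of Cre H3Ac peaks scoring at least 1000, 0.0525% (5 of 9519) were Cre-only, and 3 of these 5 lay in the Mx1, Oas2 and Isg15 windows. The Isg15 peak lay 201 bases from a GFP H3Ac peak, and was no longer Cre-only once peaks within 1000 bases were merged. The other 2 Cre-only H3K4me3 peaks scored 103 and 71.1, and the other 8 Cre-only H3Ac peaks scored between 64.7 and 812. Peaks in bulk cells do not tell a mark in more cells from a stronger mark in each cell.

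**Figure D1:**
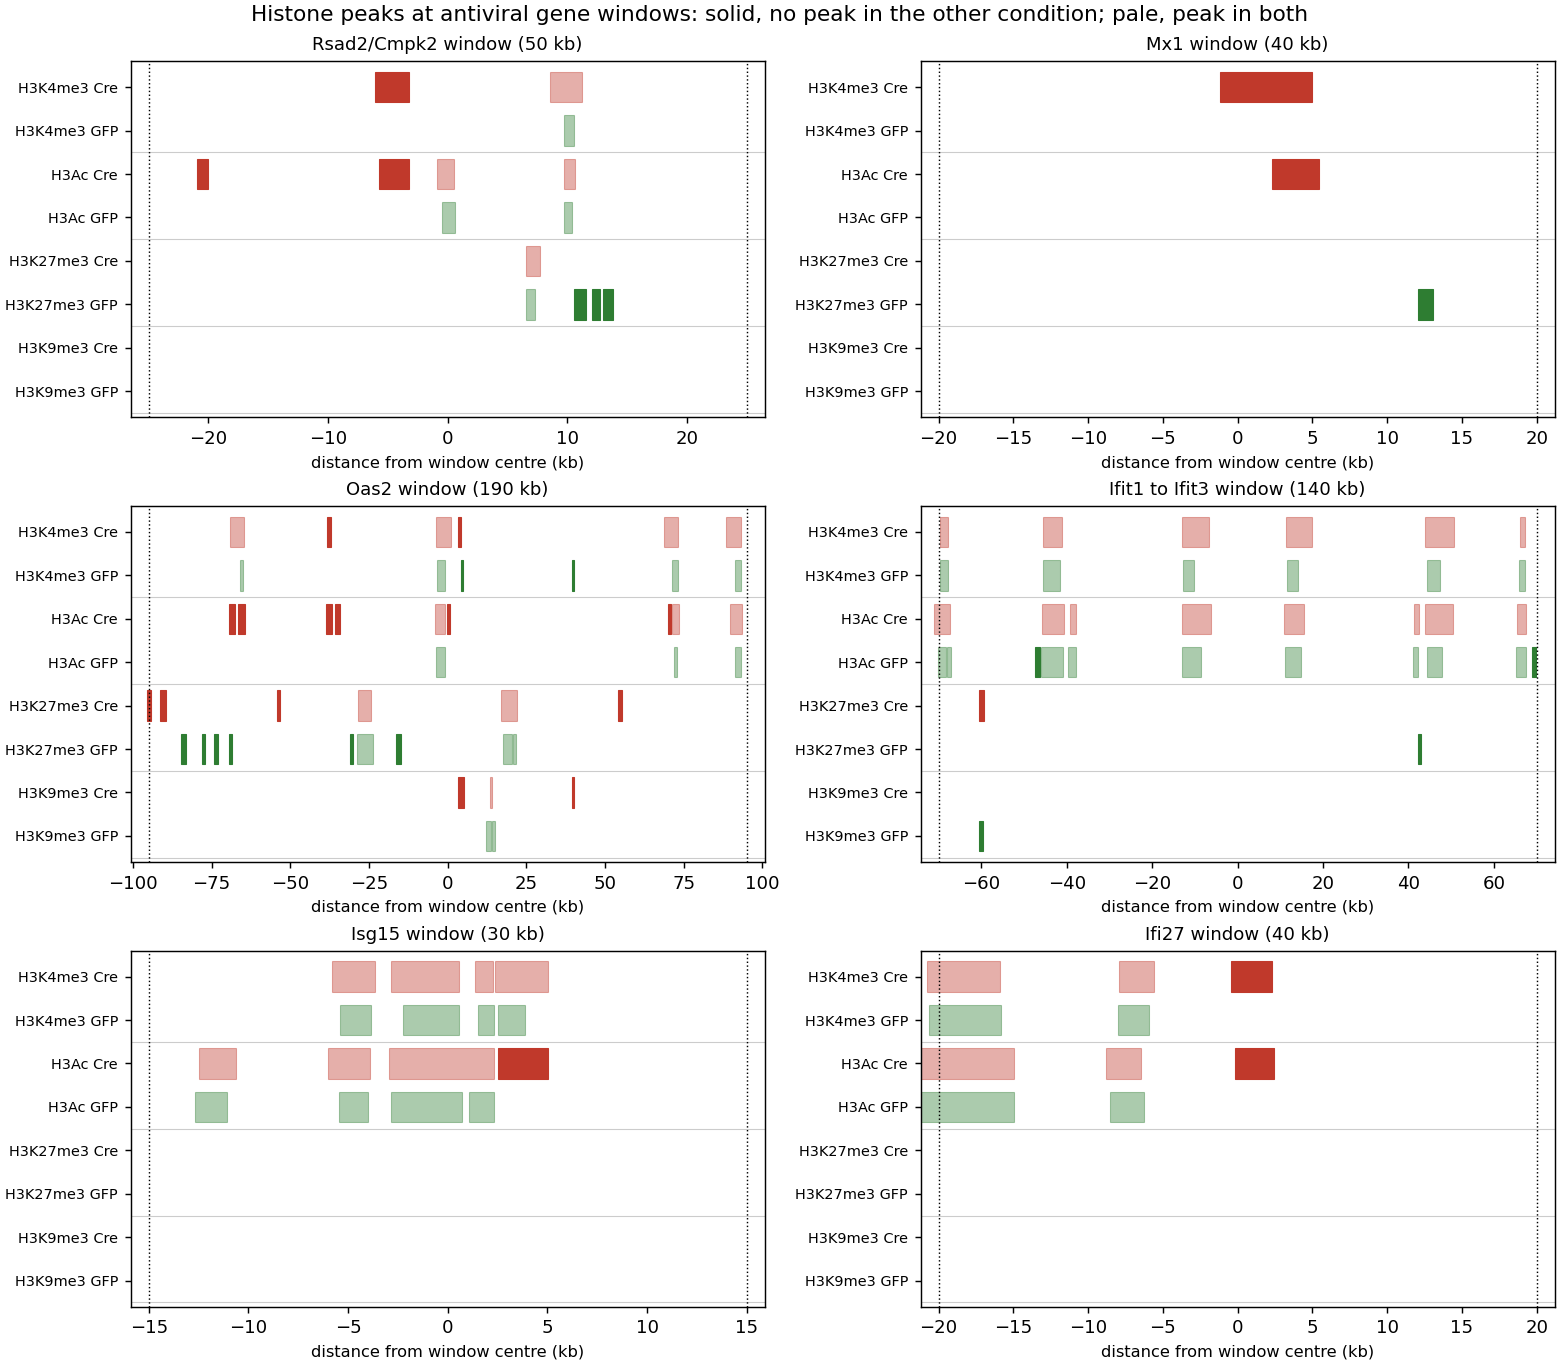
Peaks of 4 histone marks in the 6 windows, plotted against distance from the window centre in kb, with Cre rows (red) above GFP rows (green) and dotted lines at the window edges. Solid bars have no peak of the same mark in the other library, and the Mx1 window holds solid Cre H3K4me3 and H3Ac bars with no GFP bar of either mark.

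Rsad2 encodes viperin, which makes a chain-terminating nucleotide against viral polymerases, and Cmpk2 is a mitochondrial nucleotide kinase. The 2 genes are neighbours in the RefSeq gene table. In their window (chromosome 12, build NCBIM37) Cre cells had an H3K4me3 peak of 2826 bases from 27138900 to 27141725 with a score of 3100. GFP cells had no H3K4me3 peak within 12965 bases of it. A Cre-only H3Ac peak from 27139244 to 27141770, with a score of 812 and at percentile 74.5 of its list, overlapped it by 2482 bases.

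The other H3K4me3 region of that window was present in both groups. It spanned 2666 bases with a score of 1057 in Cre cells, and 848 bases with a score of 153 in GFP cells. Its width ratio was 3.14, above 99.8% of all regions with H3K4me3 in both lists. H3Ac at the same place was weak in both, with a score of 125 in Cre cells and 51.2 in GFP cells. A weak Cre-only H3Ac peak from 27124027 to 27124966 had a score of 64.7. Over the window H3K4me3 covered 5.49 kb in Cre cells and 0.848 kb in GFP cells.

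Mx1 encodes a dynamin-like GTPase that traps influenza virus, and many laboratory mouse strains, C57BL/6 among them, carry a defective copy. The Mx1 window (chromosome 16) held a single H3K4me3 peak in Cre cells, 6170 bases wide, from 97678800 to 97684969, with a score of 3100. A Cre H3Ac peak from 97682304 to 97685454, with a score of 1461, overlapped its right part by 2666 bases. GFP cells had no peak of either mark in the window. The nearest GFP H3K4me3 peak was 71265 bases away and the nearest GFP H3Ac peak 31723 bases away. For comparison, 8.29% of all bins of 50 kb with a Cre H3K4me3 peak held no GFP one (8.09% with the bins shifted by 25 kb), and for H3Ac it was 8.76% (8.78% shifted).

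The 2 H3K4me3 peaks of the Rsad2 and Mx1 windows belong to the 4 Cre-only H3K4me3 peaks that reached a score of 3100 in the whole list. No GFP-only H3K4me3 peak of the whole GFP list reached it.

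Oas2 belongs to the oligoadenylate synthetases, which sense double-stranded RNA and activate RNase L. In the RefSeq gene table it is followed by Oas3, Oas1e, Oas1c and Oas1f. The 190 kb window (chromosome 5) held 4 regions with H3K4me3 in both groups, and all 4 had a Cre score of 3100. At 121195775 to 121200220 the Cre peak spanned 4446 bases, against 960 bases and a score of 75.5 in GFP cells. The score moved by 78.2 percentile points (Cre minus GFP) among regions in both lists, more than in 99.98% of them.

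Acetylation of that region was Cre-only. There Cre cells had 2 H3Ac peaks, with scores of 239 and 1117, and the nearest GFP H3Ac peak was 60506 bases away. The next 2 H3K4me3 regions to differ lay near the right end of the window. At 121333669 to 121338217 the Cre peak spanned 4549 bases, against 1762 bases and a score of 377 in GFP cells. At 121353528 to 121358172 it spanned 4645 bases, against 1649 bases and a score of 982 in GFP cells. H3Ac followed both: the scores were 1695 in Cre and 62.2 in GFP cells at the first, and 1935 in Cre and 390 in GFP cells at the second.

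A strong region was shared. From 121261406 to 121265935 H3K4me3 scored 3100 in both groups and spanned 4530 bases in Cre and 2539 bases in GFP cells, and H3Ac scored 3100 in Cre and 2451 in GFP cells. A region from 121226659 to 121227787 was Cre-only for H3K4me3, with a score of 103, and carried a Cre-only H3Ac peak with a score of 326. The Cre-only H3Ac peaks left over in this window scored between 103 and 120. A pair of weak H3K4me3 peaks lay 41 bases apart without overlapping, 1 in Cre cells with a score of 71.1 and 1 in GFP cells with 56.4. A GFP-only H3K4me3 peak from 121304378 to 121305118 had a score of 55.95.

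The Ifit genes encode RNA-binding proteins that recognise viral RNA ends and block its translation. Ifit2, Ifit3, Ifit1bl1, Ifit3b, Ifit1bl2 and Ifit1 follow each other in the RefSeq table. Here the window (chromosome 19) was already marked in GFP cells: each group had 6 H3K4me3 peaks, and every one overlapped a peak of the other. Of the 6, 5 reached a score of 3100 in Cre cells and 0 in GFP cells, whose scores were between 409 and 2199. At 2 of those 5, from 34600272 to 34602186 and from 34624360 to 34628912, the score was higher in Cre cells at a like width, and at the other 3 both score and width were greater.

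The H3K4me3 region from 34657072 to 34663353 spanned 6282 bases in Cre and 2551 bases in GFP cells, where the GFP score was 409. The region from 34681331 to 34687364 spanned 6034 bases in Cre and 2442 bases in GFP cells, where the GFP score was 544. The region from 34713913 to 34720591 spanned 6679 bases in Cre and 3095 bases in GFP cells, where the GFP score was 2154. Their width ratios were 2.46, 2.47 and 2.158. Of all regions with H3K4me3 in both lists, 1.51% were at least 2-fold wider in Cre cells.

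The remaining Ifit window regions, 3 in number, were of like width in both groups, with ratios of 0.984, 1.13 and 0.945. The last of these, at the right edge, scored 359 in Cre and 543 in GFP cells. H3Ac was wider at all 3 of the wide regions. From left to right it spanned 6798 bases in Cre cells, against 4541 bases in GFP cells, then 4718 bases in Cre cells, against 3662 bases in GFP cells, then 6522 bases in Cre cells, against 3682 bases in GFP cells. In Cre cells 4 of 8 H3Ac peaks reached 3100, and in GFP cells 1 of 11 did, beside 5.64% and 6.57% of the whole lists. Both GFP-only H3Ac peaks of all the windows lay here, with scores of 114 and 55.9.

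Isg15 encodes a ubiquitin-like modifier that is attached to other proteins during the interferon response. Its window (chromosome 4), of 30 kb, held 4 H3K4me3 peaks in each group, all present in both. The 4 Cre scores were 2363, 3100, 473 and 2478 from left to right, and the GFP scores at the same places were 646, 1202, 121 and 227. All 4 were higher in rank in Cre cells, by 17.2 to 37.6 percentile points. The largest difference, at 155577363 to 155580043, went with a width of 2681 bases in Cre and 1366 bases in GFP cells. There H3Ac was Cre-only, with a peak of 2511 bases and a score of 1012, although a GFP H3Ac peak ended 201 bases before it. The strongest H3Ac peak scored 3100 in Cre cells, where the GFP peaks at that place scored 1211 and 264.

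Ifi27 encodes a small mitochondrial protein induced by interferon, and Ifi27l2a and Ifi27l2b lie beside it in the RefSeq table. Its window (chromosome 12) held a Cre-only region, with an H3K4me3 peak from 104679573 to 104682303 of score 1451 and an H3Ac peak from 104679839 to 104682430 of score 519. The nearest GFP H3K4me3 peak ended 5499 bases away. The other 2 H3K4me3 regions of the window were alike in the 2 groups. They spanned 4884 bases in Cre and 4793 bases in GFP cells at the first, and 2298 in Cre and 2053 in GFP cells at the second. The second ranked lower in Cre cells, by -13.6 percentile points, with scores of 814 in Cre and 1128 in GFP cells.

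**Figure D2:**
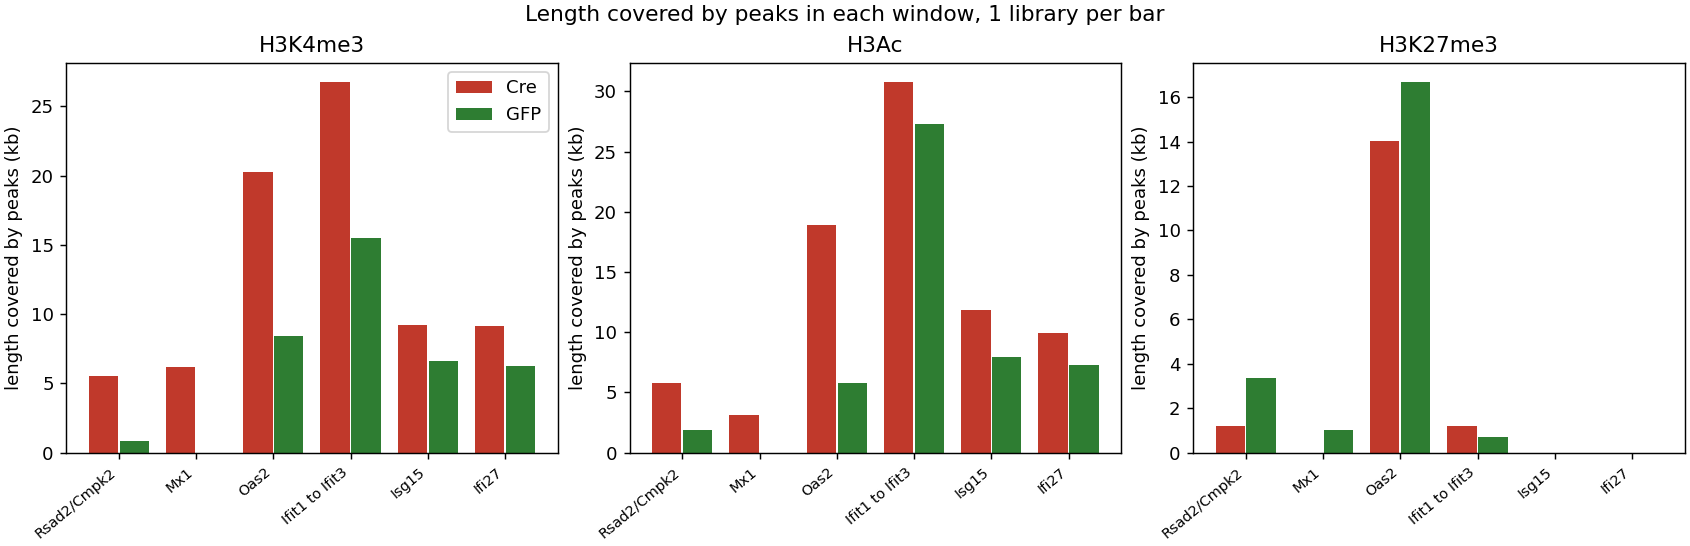
Length covered by H3K4me3, H3Ac and H3K27me3 peaks in each window in kb, Cre bar (red) left of the GFP bar (green), 1 library per bar and no error. Cre bars are the taller ones in every window for H3K4me3 and H3Ac, as at Oas2 with 20.3 kb in Cre cells and 8.43 kb in GFP cells for H3K4me3.

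Over the windows, 17 regions had H3K4me3 in both groups. The median width was 4446 bases in Cre and 1909 bases in GFP cells, and the median ratio was 1.78, against 1.07 over all 19333 such regions. Cre was wider in 15 of the 17, where it was wider in 70.1% of all regions, and at least 2-fold wider in 7. The 7 were 3 in the Oas2 window, 3 in the Ifit window and 1 in the Rsad2 and Cmpk2 window. For H3Ac, 18 regions had a median ratio of 1.20, against 0.962 over all 33794. Of these 18, 14 were wider in Cre cells beside 41.8% of all regions, and 2 were at least 2-fold wider beside 1.04%.

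Of the 7 H3K4me3 regions at least 2-fold wider, 6 had at least 75% of the added length on 1 side, beside 70.1% of all such regions, and nothing particular to the windows is read from this count. In the Oas2 window the 3 regions extended to the left, by 3103, 2679 and 2847 bases, and to the right by at most 383 bases. In the Ifit window the 3 regions extended to the right, by 3649, 3325 and 3111 bases, and to the left by at most 473 bases. The region in the Rsad2 and Cmpk2 window extended by 1138 bases to the left and 680 bases to the right. Of the 2 H3Ac regions at least 2-fold wider, both in the Oas2 window, 1 had at least 75% of the added length on 1 side, beside 66.1% of all such regions. Which gene each region belongs to was not determined.

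**Figure D3:**
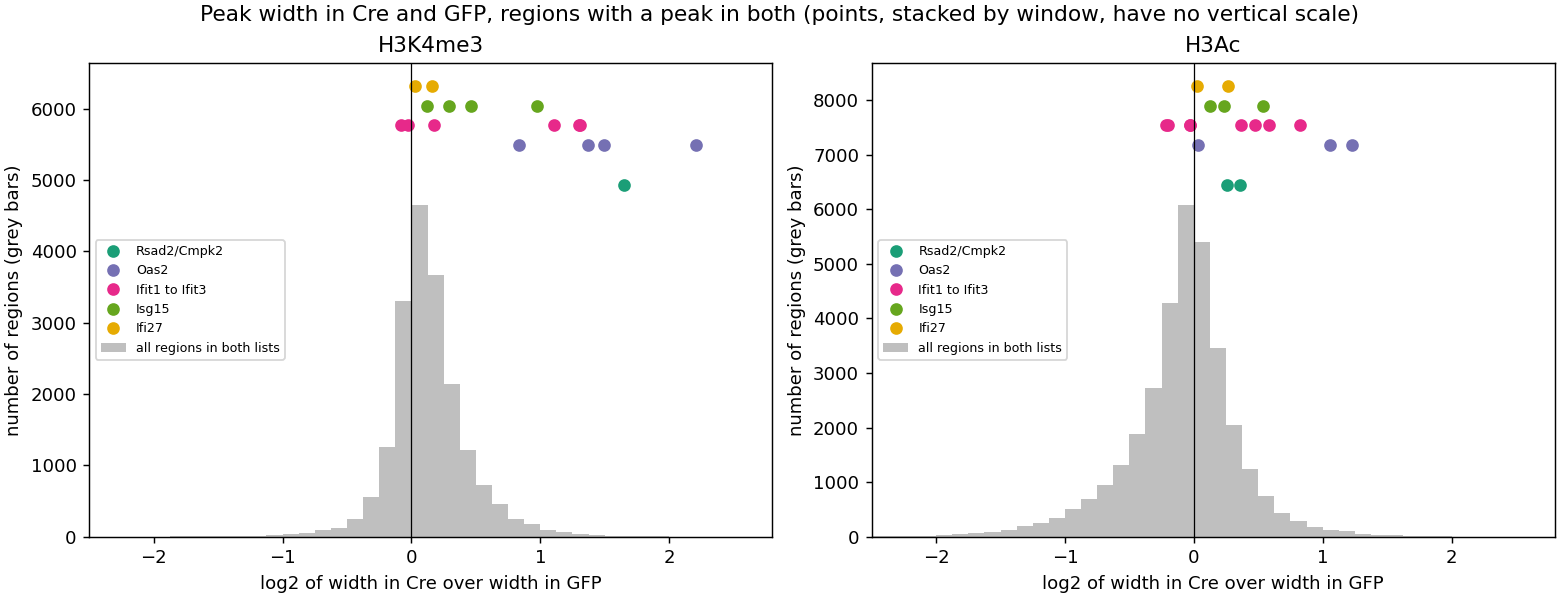
Width in Cre cells over width in GFP cells on a log2 scale, for H3K4me3 and H3Ac regions present in both lists. Grey bars count all regions and coloured points are the regions of the windows, which for H3K4me3 have a median ratio of 1.78 beside 1.07 for all regions.

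Ranks moved the same way. Among regions in both lists, 13 of the 17 H3K4me3 regions ranked higher in Cre cells, beside 39.8% of all, and the median move was 20.9 percentile points. Of the 17, 9 reached 3100 in Cre cells and not in GFP cells, beside 7.94% of all regions. Since peaks of 3100 are tied, the 2 regions at 3100 in both groups show a move of -3.67 points that comes from the number of ties alone. The other two that ranked lower were the right-edge region of the Ifit window and the second region of the Ifi27 window, by -14.0 and -13.6 points. For H3Ac 15 of 18 regions ranked higher in Cre cells, beside 54.0% of all, with a median move of 9.63 points, and 5 reached 3100 in Cre cells only, beside 0.903%. Among these 15, the Ifit region from 34623870 to 34629333 scored 3100 in both groups, and its move of 1.23 points reflects ties. The Ifit region from 34630413 to 34632190 moved by 0.786 points, although it scored 252 in Cre and 303 in GFP cells. The exceptions for H3Ac were both shared regions of the Ifi27 window and the region at the right edge of the Ifit window.

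**Figure D4:**
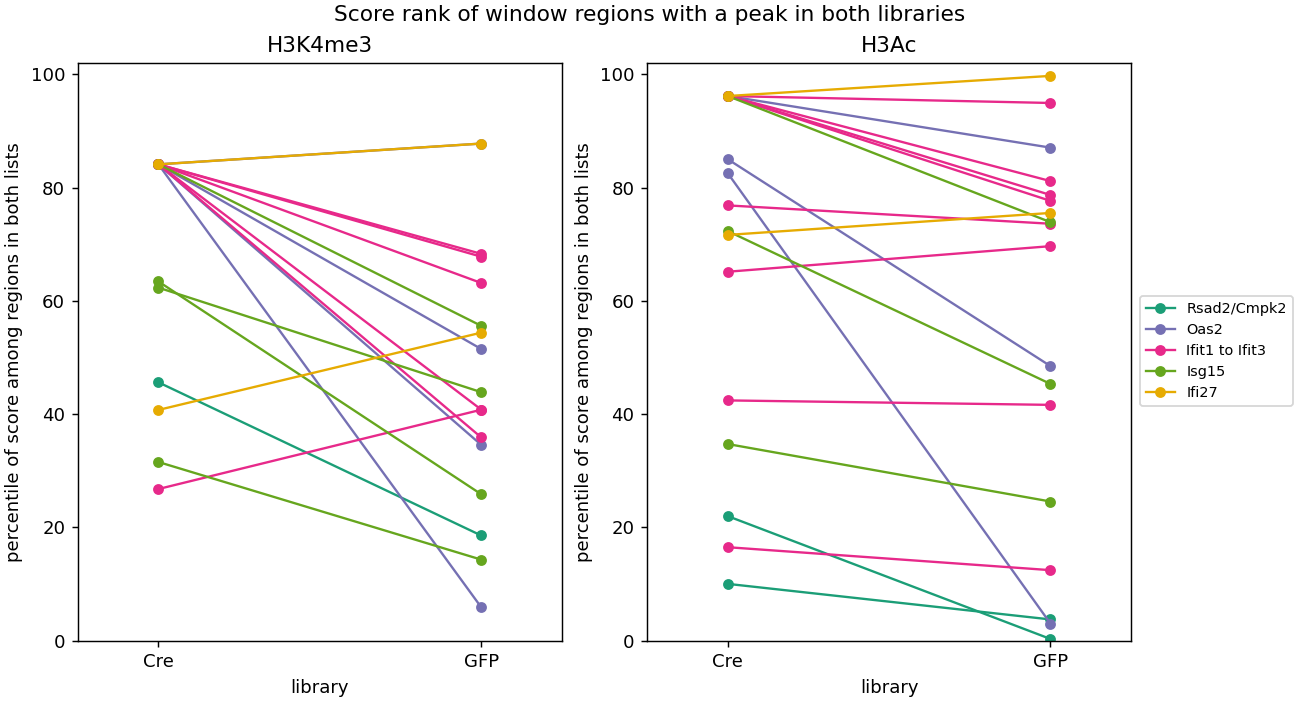
Percentile of the peak score among regions present in both lists, Cre at the left and GFP at the right, for the 17 H3K4me3 and 18 H3Ac regions of the windows, coloured by window. Most lines descend to the right, the steepest at Oas2 with H3Ac at percentile 82.5 in Cre and 3.04 in GFP cells.

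For the Polycomb mark, Cre cells had 8 H3K27me3 peaks in 3 windows, 5 of them without a GFP counterpart, and GFP cells had 15 in 4 windows, 11 of them without a Cre counterpart. Over the whole lists 33.6% of Cre and 30.5% of GFP H3K27me3 peaks had none. The Isg15 and Ifi27 windows held no H3K27me3 peak in either group. In the Mx1 window the only repressive peak was a GFP H3K27me3 peak from 97692068 to 97693097, with a score of 94.6, outside the Cre H3K4me3 peak.

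In the Rsad2 and Cmpk2 window GFP cells had 4 H3K27me3 peaks, with scores of 60.3 to 96.6, and Cre cells had 1, with a score of 107. The strongest GFP peak, from 27155535 to 27156591, overlapped the Cre H3K4me3 peak of 2666 bases by 684 bases and the GFP H3K4me3 peak by 4 bases. In the Oas2 window a GFP H3K27me3 peak from 121195453 to 121196476, with a score of 64.8, overlapped by 702 bases the Cre H3K4me3 peak that was so much wider than in GFP cells. Thus 2 of 15 GFP H3K27me3 peaks overlapped Cre H3K4me3 and 1 of 15 overlapped GFP H3K4me3, beside 8.04% and 8.21% of the whole list.

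The 2 strong H3K27me3 regions of the Oas2 window were kept in both groups. From 121236301 to 121241220 the score was 870 in Cre and 1159 in GFP cells. From 121282050 to 121286926 it was 1454 in Cre cells and at most 678 in GFP cells. The GFP-only peaks of this window scored 64.8 to 180, and the Cre-only peaks 50.03 to 172.

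Heterochromatin peaks in the windows were few. Cre cells had 3 H3K9me3 peaks, all in the Oas2 window, and 2 of them were without a GFP counterpart. GFP cells had 3, of which 2 lay in the Oas2 window and 1 in the Ifit window, and 1 was without a Cre counterpart. Over the whole lists 39.9% of Cre and 81.0% of GFP H3K9me3 peaks had none. The Cre H3K9me3 peak from 121268430 to 121270263, with a score of 167 and at percentile 87.8 of its list, overlapped the weak pair of H3K4me3 peaks that lay 41 bases apart. The Cre H3K9me3 peak from 121304335 to 121305047, with a score of 56.1, overlapped the GFP-only H3K4me3 peak there by 670 bases.

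In the Ifit window a Cre H3K27me3 peak from 34609528 to 34610741, with a score of 124, contained a GFP H3K9me3 peak from 34609581 to 34610448, with a score of 68.7. Neither mark had a peak there in the other group.

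Outside the windows, within 200 kb on either side, the numbers of active peaks were close. Cre cells had 19 H3K4me3 peaks, 3 of them Cre-only with scores up to 224, and GFP cells had 18, none of them GFP-only. Over the whole lists 12.6% of Cre and 10.7% of GFP H3K4me3 peaks had no counterpart. H3Ac numbered 37 peaks in Cre cells, 10 of them Cre-only with scores up to 829, and 38 in GFP cells, 13 of them GFP-only with scores up to 171. For H3Ac the whole-list shares were 15.4% of Cre and 26.6% of GFP peaks. The H3Ac flank peaks summed to 56.65 kb in Cre cells and 61.7 kb in GFP cells, a ratio of 0.918, against 0.847 over the whole lists. H3K4me3 flank peaks summed to 43.0 kb in Cre cells and 29.2 kb in GFP cells, a ratio of 1.47, against 1.08 over the whole lists. The flanks of the Mx1 window held much of the gap, with 12.6 kb in Cre cells and 5.54 kb in GFP cells.

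Peaks just outside the window edges shared some of the pattern. Which genes these peaks belong to was not determined, and the flanks may hold other interferon-stimulated genes. To the right of the Mx1 window, at 55.7 kb, a Cre H3K4me3 peak ran from 97755676 to 97764340 and scored 3100, while the GFP peak there ran from 97756235 to 97757285 with a score of 155. To the left of the Rsad2 and Cmpk2 window, at about 20.0 kb, H3K4me3 scored 1430 in Cre and 170 in GFP cells, and a Cre-only H3Ac peak scored 829. The nearest H3K4me3 peaks to the left of the Oas2 and Ifit windows scored 3100 in both groups, but their extents differed. Beside the Oas2 window the peak ran from 121061198 to 121064917 in Cre cells and from 121063285 to 121065016 in GFP cells. Beside the Ifit window it ran from 34546516 to 34551128 in Cre cells and from 34546843 to 34550870 in GFP cells. Both were wider in Cre cells.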

How the data were processed

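Histone chromatin immunoprecipitation libraries of Cre and GFP cells were used, 1 per mark and condition. Per the submitters' processing notes the build was NCBIM37, and the tools listed include MACS 1.4.1 (a peak caller), bedtools 2.16.2, SAMtools 0.1.18 and BWA. Peak names begin with MACS. The deposited score has no header or unit, and the authors gave 1 list per library. Controls, duplicate handling and depth are not given in the sources used here. The GFP histone input is labelled replicate 1 and the Cre input replicate 3.

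Peaks were taken where they overlapped a window by 1 base, with positions counted from 1. Regions in both lists are chains of overlapping Cre and GFP peaks, with widths summed and the highest score taken. Ranks are percentiles, ties averaged. Motifs were searched on both strands. Overlap code was tested on simulated data. Python 3.11.15, NumPy 2.4.6, pandas 2.3.3, SciPy 1.17.1 and matplotlib 3.10.9 were used.

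Windows, gene list and comparisons were chosen with earlier results of these data known, and widths, ties and 1-sided extension after the values were seen. All window peaks enter the counts and covered lengths, but not all are described singly. Those in 1 condition only are described where strong. No p-value was computed, since no group has a replicate.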

Additional observations from a re-analysis of the deposited data

How the results depend on the processing

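The 6 alternatives on peaks were applied to 13 results and 1 to the motif count, and 71 of 79 values stayed within 1.5 times the value given. Some of the 71 could not move. The overlap requirement of 50% cannot change the covered-length ratios or the counts of windows with an H3K27me3 or H3K9me3 peak. Windows with a region of overlapping Cre-only H3K4me3 and Cre-only H3Ac peaks stayed at 4. The share of such regions over the whole lists was not counted, and nothing is read from this count. In 1 of the 4, the Oas2 window, that H3K4me3 peak was weak, with a score of 103. The covered-length ratio lay between 2.04 and 2.17 for H3K4me3 and between 1.60 and 1.73 for H3Ac. With at least 50% of the peak required to overlap, Cre-only H3K4me3 peaks numbered 12 in place of 5, since wide Cre peaks then count as unmatched. With peaks merged within 1000 bases, Cre-only H3Ac peaks numbered 6 in place of 11. Windows with a Cre-only H3Ac peak then numbered 4 in place of 5, as the Isg15 window no longer held one. With a minimum score of 100, windows with a GFP-only H3K4me3 peak numbered 0 in place of 1. Windows with a GFP H3K27me3 peak then numbered 1 in place of 4, and those with a GFP H3K9me3 peak 0 in place of 2. At that minimum the H3K27me3 sum was no longer smaller in Cre cells. With equal numbers of top-scoring peaks, windows with a GFP-only H3K4me3 peak and windows with a GFP H3K9me3 peak each numbered 0. The longer motif left 2 genes in place of 4. No paired analysis was possible because each group has 1 library. The absence of a peak means only that none passed the authors' threshold at an unknown depth.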
